A study of Mus musculus with 32 samples.

Results

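The genes described here are named for the proteins of the cytosolic ribosome. Their RNA was measured in mouse liver after an oral load of palm oil or water, with or without a hyperinsulinemic-euglycemic clamp. They were taken by name: every gene symbol formed as Rpl or Rps with a number, together with Rplp0, Rplp1, Rplp2 and Rpsa, each represented by its brightest probe set that carries that symbol and no other. By this rule 67 of the 22180 genes on the arrays were members, 42 of the large and 25 of the small subunit. All 67 matched the mouse RefSeq gene table by gene number and symbol, which lists Rpl6l as a pseudogene and Rps4l as a transcribed pseudogene. A fixed list of paralogs of other ribosomal protein genes held 7 of the members, with Rps4l among them but not Rpl32l or Rpl6l.

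Livers came from male C57BL/6NTac wild-type mice 14 weeks old, fasted for 10 h before the gavage, with 1 array per mouse. The 4 groups were palm oil clamped (9 mice, palm oil at 2 g per kg and then the clamp), palm oil basal (9 mice, the same palm oil and no clamp), control clamped (7 mice, water and then the clamp) and control basal (7 mice, water and no clamp). Basal mice were killed under isoflurane 6 h after the gavage. Clamped mice had received a jugular catheter 6 to 7 days earlier under ketamine and xylazine, began the clamp 6 h after the gavage with a glucose tracer for 110 min and then insulin at 15 pmol per kg per min, received a deoxyglucose tracer, and were killed with intravenous ketamine and xylazine. All clamped mice have animal numbers of 15 to 32 and all basal mice have numbers of 33 to 52. Clamp, catheter, anaesthetic, tracers, the longer time without food and animal number therefore cannot be told apart in any difference between clamped and basal livers. Each array holds the liver of a separate animal, and the number of arrays limits the precision.

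A ribosome joins a small subunit, which reads the mRNA, to a large subunit, which forms the peptide bond, and nearly every ribosomal protein is present in a single copy per ribosome. Their mRNAs are among the most abundant in liver, and in vertebrates most of them start with a C and a run of pyrimidines, the terminal oligopyrimidine or TOP motif. Through this motif and the RNA-binding protein Larp1, the kinase mTORC1, which insulin and amino acids activate, mainly sets how much of each mRNA is translated. The arrays measured mRNA level and not translation.

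Start-site sequences are given for the members called in control mice, as described further on, since the TOP motif lies there. Each runs 5′ to 3′ from 40 bases before the RefSeq start of the gene through the first 20 bases from it, on the GRCm38.p6 mouse genome, and capitals mark each C followed by at least 4 pyrimidines.
Rps13 (chr7:116334171-116334230, - strand): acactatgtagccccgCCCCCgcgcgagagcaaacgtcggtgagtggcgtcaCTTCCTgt
Rpl4 (chr9:64173347-64173406, + strand): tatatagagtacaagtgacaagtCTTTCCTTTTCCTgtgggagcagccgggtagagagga
Rps6 (chr4:86857348-86857407, - strand): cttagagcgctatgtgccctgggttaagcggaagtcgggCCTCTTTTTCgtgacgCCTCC
Rpl22l1 (chr3:28805468-28805527, + strand): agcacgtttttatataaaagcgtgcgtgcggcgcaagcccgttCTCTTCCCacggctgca
Rpl9 (chr5:65391412-65391471, - strand): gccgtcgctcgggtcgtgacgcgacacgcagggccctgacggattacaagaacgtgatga
Rps3a1 (chr3:86142649-86142708, - strand): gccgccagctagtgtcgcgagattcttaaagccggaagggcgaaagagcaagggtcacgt
Rps28 (chr17:33824543-33824602, - strand): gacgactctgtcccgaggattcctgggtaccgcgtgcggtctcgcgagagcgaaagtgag
The windows of Rps13, Rpl4, Rps6 and Rpl22l1 hold such a run, and those of Rpl9, Rps3a1 and Rps28 do not. Only the first run of Rps6 spans the RefSeq start. The run of Rpl4 ends before the start, that of Rpl22l1 begins after it and those of Rps13 lie on either side. A run anywhere in the window was counted, while a TOP motif begins at the first base of the mRNA. Neither the presence nor the absence of a run therefore assigns a TOP motif here. Promoter sequences were matched for 52 members, of which 44 (84.6%) had a run in this window, against 64.1% of the 27025 genes in the RefSeq promoter table. In the 300 bases from 250 before to 50 after the start, searched on both strands, CCGGAAG, a core site of ETS factors such as Gabpa, occurred in 23 members (44.2%), against 9.9% of all genes. The Yy1 core CCATNTTG occurred in 9 members (17.3%, against 5.8%), the TATA sequence TATAAA in 6 (11.5%, against 15.7%) and the Myc and Max site CACGTG in 4 (7.7%, against 8.1%). The sequences of Rpl17, Rpl21, Rpl23a, Rpl29, Rpl3, Rpl30, Rpl32, Rpl6l, Rpl7, Rpl8, Rplp1, Rps14, Rps20, Rps29 and Rps4l were not used here.

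The values are log2 signals, and a signal depends on the probes as well as on the mRNA, so members are compared between arrays and not with each other. Averaged over the 32 arrays, 35 members (52.2%) had a signal of 7 or more, as did 6.61% of all genes, 15 lay between 3 and 7, and 17 lay below 3, beside a median of 1.83 over all genes. Of those 17 dim members, 7 also had probe sets assigned to several genes, which were not used. Rps2 and Rpl36al had no probe set of their own symbol alone and were not analysed here. In all, 57 probe sets assigned to several genes carry 33 ribosomal protein symbols, of which 13 are not among the 67 members: Rps2, Rpl36al, Rpl10, Rpl12, Rpl13a, Rpl23, Rpl24, Rpl31, Rpl35a, Rpl36, Rpl36a, Rps15a and Rps21. Hepatocyte markers averaged 10.1 to 10.7 on every array. Markers of pancreatic acinar cells, of which 15 of 18 were measured, averaged over 6 on 2 palm oil clamped, 5 palm oil basal, 1 control clamped and 4 control basal arrays, with group ranges of 1.78 to 7.06, 1.73 to 9.12, 1.65 to 8.25 and 2.22 to 8.69. The arrays also differed in spread. Interquartile ranges were 2.44 to 2.54 on the 7 basal arrays whose labels give an animal number of 44 or more (3 palm oil, 4 control), 2.72 to 2.96 on the remaining 9 basal arrays and 2.64 to 2.85 on the 16 clamped arrays. Median signals were 1.73 to 1.77 on those 7 basal arrays and 1.65 to 1.72 on all other arrays. Hepatocyte marker means differed along the same division. They were 10.09 to 10.33 on those 7 basal arrays, 10.34 to 10.52 on the remaining 9 and 10.50 to 10.68 on the clamped arrays.

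In palm oil mice no member was called between clamped and basal livers. At an adjusted p under 0.05 by limma, which is what is meant by a call here, no member of 67 passed, against 7.57% of all genes (3.76% higher and 3.8% lower). At an unadjusted p under 0.05, 14 members (20.9%) and 18.6% of all genes passed, and the smallest adjusted p was 0.0657, for Rps6. The median log2 difference, clamped minus basal, was 0.06 over the members and -0.02 over all genes, and 47 members (70.1%) lay above 0, as did 45.5% of all genes. The 95% interval of the difference lay within 1.5-fold in either direction for 54 members and within 2-fold for 65. The mean signal over all members was 6.49 ± 0.09 in clamped and 6.40 ± 0.10 in basal palm oil livers (SD, n = 9 each), and the groups overlapped. In such bulk samples fewer cells of a type and less RNA per cell cannot be told apart.

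In control mice 9 members passed the same test between clamped and basal livers. Of the 67 members 8 rose (11.9%), against 4.66% of all genes, and 1 fell (1.49%), against 4.09% of all genes, with 8.75% of all genes called in either direction. The median difference was 0.10 over the members (0.03 after repeated quantile normalization of the arrays) and -0.02 over all genes, and 50 members (74.6%) lay above 0, as did 46% of all genes. At an unadjusted p under 0.05, 20 members passed (29.9%), against 20.9% of all genes. The intervals of 52 members lay within 1.5-fold and those of 62 within 2-fold. The mean signal over all members was 6.54 ± 0.05 in clamped and 6.37 ± 0.05 in basal control livers (SD, n = 7 each), with ranges of 6.47 to 6.61 and 6.29 to 6.44.

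Rpl9, a protein of the large subunit, had signals of 6.31 to 6.86 (median 6.53) in clamped control livers, against 3.69 to 6.74 (median 4.98) in basal control livers. The clamped arrays lay close together and the basal ones spread over 3 log2 units, with 2 of 7 clamped arrays above every basal array. The difference was 1.37 ± 0.41 (SE; 95% interval 0.53 to 2.20; adjusted p = 0.0305), a 2.58-fold rise. This call was lost (adjusted p = 0.0559 to 0.0951) when control basal replicate 4, 5, 6 or 7 or control clamped replicate 5 or 7 was left out.

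Rps13, a small subunit protein that binds rRNA, had signals of 8.21 to 8.64 (median 8.41) in clamped control livers, against 6.29 to 8.21 (median 6.65) in basal control livers. All but 1 of the clamped arrays lay above every basal array, and the difference was 1.26 ± 0.32 (SE, adjusted p = 0.00944). Rps3a1, the small subunit protein at the exit of the mRNA channel, had 9.22 to 9.46 (median 9.34) in clamped and 7.45 to 9.29 (median 8.14) in basal control livers. It rose by 0.87 ± 0.22 (SE, adjusted p = 0.00813), with 4 of 7 clamped arrays above every basal array. Rpl4, a large subunit protein lining the tunnel through which the new peptide leaves, had 10.36 to 10.60 in clamped and 9.63 to 10.40 in basal control livers and rose by 0.50 ± 0.14 (SE, adjusted p = 0.0161).

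Rps6 is the small subunit protein that S6 kinase phosphorylates after insulin, a change these arrays do not see. Its mRNA had signals of 10.09 to 10.24 (median 10.11) in clamped control livers, against 9.82 to 9.94 (median 9.89) in basal control livers. Every clamped array lay above every basal array, while the difference was only 0.26 ± 0.08 (SE, 95% interval 0.10 to 0.43; adjusted p = 0.0356). The call was lost (adjusted p = 0.0521 to 0.0714) without control basal replicate 4, 5, 6 or 7 or control clamped replicate 2, 6 or 7. Rps28, a small protein of the same subunit, rose by 0.35 ± 0.09 (SE, adjusted p = 0.00978), with 10.00 to 10.17 in clamped and 9.46 to 10.06 in basal control livers.

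Paralogs and pseudogenes moved both ways. RefSeq lists Rps4l as a transcribed pseudogene and Rpl6l as a pseudogene, and their probes may also detect mRNA of Rps4x and Rpl6, which was not tested. Rps4l had 3.39 to 4.95 (median 4.76) in clamped and 1.91 to 4.78 (median 3.38) in basal control livers, and rose by 1.40 ± 0.36 (SE, adjusted p = 0.0106). Rpl6l rose by 0.55 ± 0.15 (SE, adjusted p = 0.0124), with 7.06 to 7.33 in clamped and 6.33 to 7.13 in basal control livers. Rpl22l1, a paralog of the large subunit protein Rpl22, was the member that fell: it had 3.74 to 4.22 in clamped and 4.14 to 4.66 in basal control livers, a difference of -0.42 ± 0.11 (SE, adjusted p = 0.0124), with 6 of 7 clamped arrays below every basal array. In control mice Rpl22 itself differed by -0.02, Rps4x by 0.07 and Rpl6 by 0.15, and none of these was called.

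**Figure D1:**
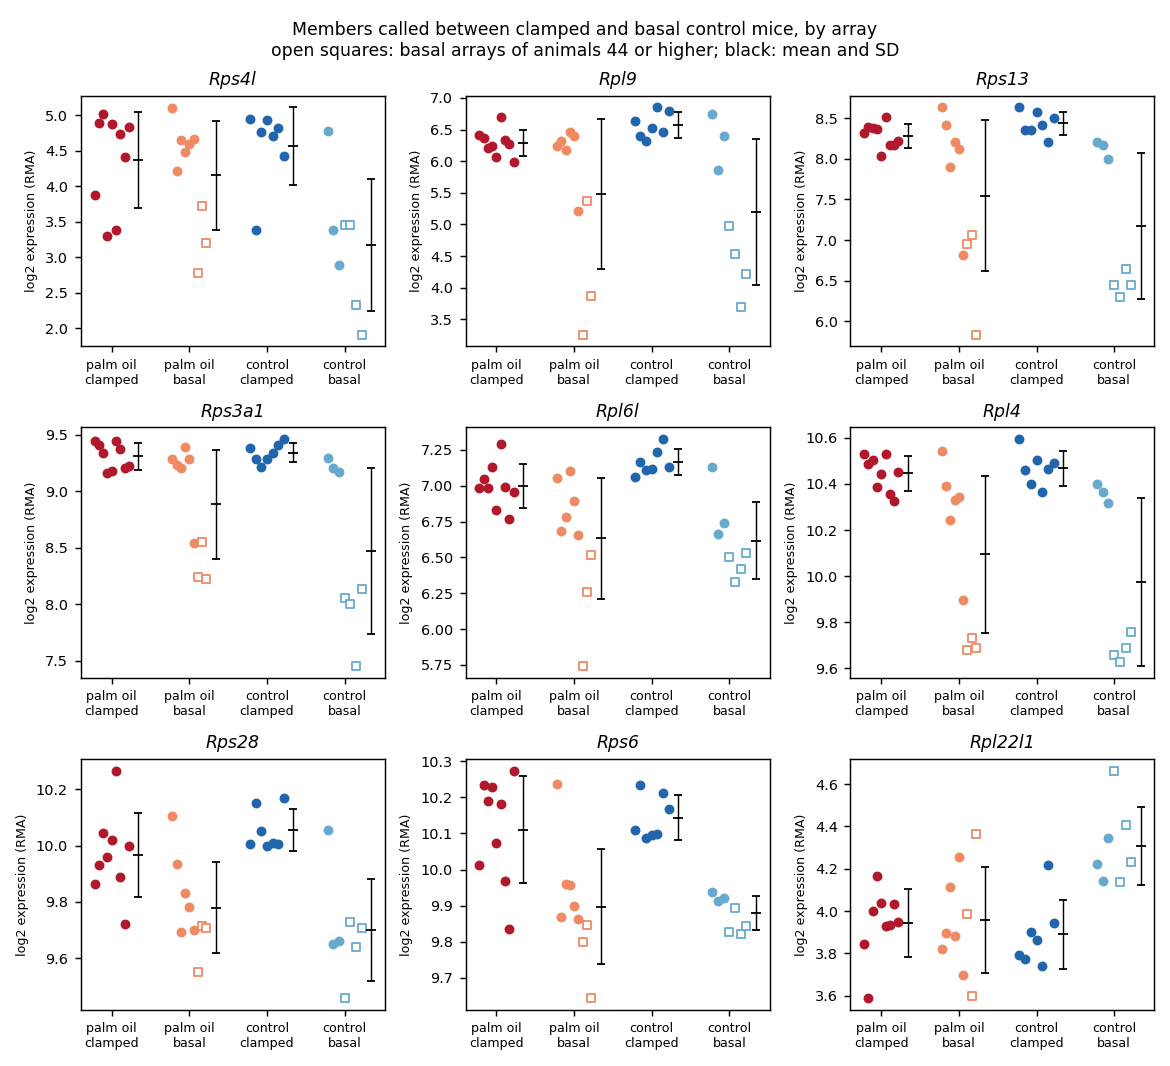
Log2 signal of the 9 members called between clamped and basal control mice, with 1 point per array in the 4 groups and the mean and SD in black. Open squares are the basal arrays of animals 44 or higher. For Rpl9, Rps13, Rps3a1, Rpl4 and Rpl6l they lie below all 16 clamped arrays, and for Rpl22l1 they do not stand apart.

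The members called in control mice differed in palm oil mice by 0.81 for Rpl9 (6.29 ± 0.21 in clamped and 5.48 ± 1.18 in basal palm oil livers, SD), 0.74 for Rps13, 0.42 for Rps3a1, 0.37 for Rpl6l, 0.35 for Rpl4, 0.21 for Rps4l, 0.21 for Rps6, 0.19 for Rps28 and -0.01 for Rpl22l1. For Rpl9, Rps13 and Rps3a1 the basal palm oil arrays again spread wider than the clamped ones, with SDs of 1.18, 0.93 and 0.48 beside 0.21, 0.15 and 0.12. Leaving out palm oil basal replicate 1 brought Rps6 (adjusted p = 0.0165), Rpl4 (0.0290), Rpl6l (0.0395) and Rps27l (0.0439) past the threshold. Rpl4 also passed without palm oil basal replicate 2 (0.0474), Rpl6l without palm oil basal replicate 4 (0.0345) and Rps6 without palm oil clamped replicate 8 (0.0273).

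**Figure D2:**
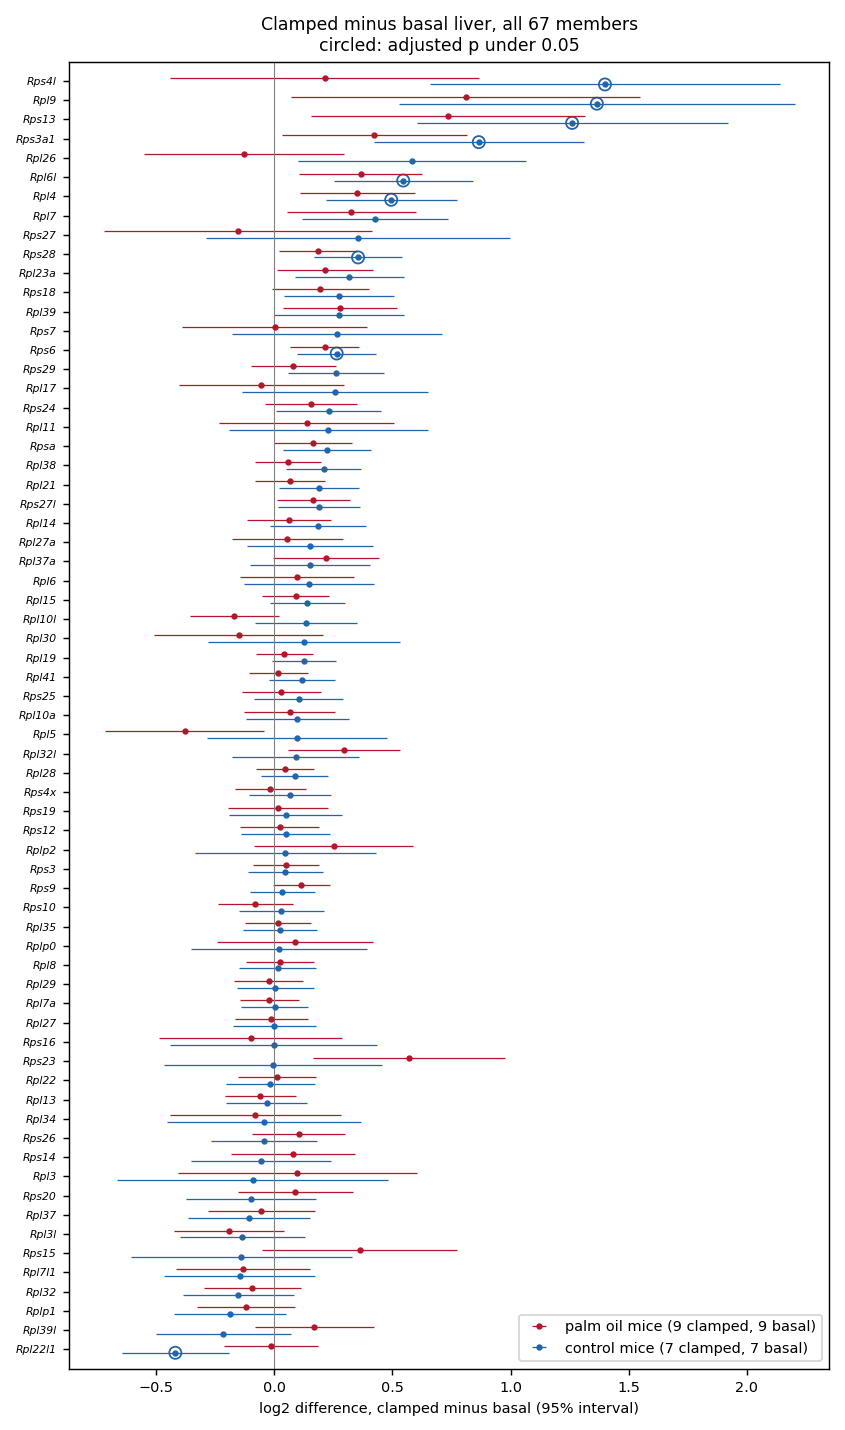
Log2 difference, clamped minus basal, of all 67 members in palm oil mice (red, 9 clamped and 9 basal) and control mice (blue, 7 clamped and 7 basal), with 95% intervals, sorted by the control value. Circles mark an adjusted p under 0.05, which no member had in palm oil mice and 9 had in control mice; most points lie near 0, with medians of 0.06 for palm oil and 0.10 for control mice.

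The wide spread of the basal arrays followed the animal number. The number 44 was chosen with the interquartile ranges of the arrays known. On the basal palm oil arrays Rpl9 had 3.26, 5.37 and 3.87 in animals 44 or higher and 6.24, 6.32, 6.18, 6.47, 6.40 and 5.22 in the others. On the basal control arrays it had 4.98, 4.54, 3.69 and 4.22 in animals 44 or higher and 6.75, 5.86 and 6.39 in the others. Those with numbers under 44 thus lay near the clamped arrays (5.99 to 6.86), apart from the 5.22 of animal 43, which lies next to the division. Rps13 gave 6.95, 7.06 and 5.84 in palm oil and 6.45, 6.29, 6.65 and 6.44 in control animals 44 or higher, against 6.81 to 8.64 in all other basal animals. The lowest of the others was again animal 43.

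Between the basal arrays of animals 44 or higher and the other basal arrays, 11 of 67 members were lower, against 6.69% of all genes called lower, and 4 were higher, against 3.48% of all genes (10.2% in either direction). The median difference was -0.02 over the members and 0.03 over all genes. The lower members were Rpl9 (-1.97 ± 0.27, SE), Rps13 (-1.52), Rps4l (-1.16), Rps3a1 (-1.04), Rpl3 (-1.02), Rpl4 (-0.63), Rpl7 (-0.62), Rpl6l (-0.56), Rpl39 (-0.52), Rps18 (-0.51) and Rpl23a (-0.45). Rpl34 (0.68), Rplp1 (0.47), Rpl32 (0.44) and Rps12 (0.26) were higher. Rps6 (-0.14), Rps28 (-0.17) and Rpl22l1 (0.08) were not called between these arrays. Rpl7, Rpl39, Rps18, Rpl23a, Rpl34, Rpl32 and Rps12 are named here for this difference, after their values were seen.

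Set against the other basal arrays alone, clamped mice showed no called member. In palm oil mice (9 against 6 arrays) 5.82% of all genes were called, 2.39% as higher and 3.43% as lower. In control mice (7 against 3 arrays) 4.63% of all genes were called, 1.79% as higher and 2.84% as lower. The 9 members called before then had differences of -0.25 to 0.27 in palm oil mice, against -0.35 to 0.89 in control mice. Relative to all basal arrays the sign turned for 12 of 67 members in palm oil mice, 11 of them with a first difference smaller than its standard error, and for 17 in control mice, 11 of them likewise. Rps4l was among them in palm oil mice, at -0.25 beside 0.21 over all arrays. Rpl9 differed by 0.15 (95% interval -0.17 to 0.48) in palm oil mice and by 0.24 (-0.19 to 0.66) in control mice. In control mice Rpl22l1 had -0.35 (95% interval -0.61 to -0.09, adjusted p = 0.124) and Rps6 0.22 (0.01 to 0.43, adjusted p = 0.266).

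Set against the basal arrays of animals 44 or higher alone, 12 members rose and 2 fell in palm oil mice (9 against 3 arrays), where 5.63% of all genes rose, 4.2% fell and 9.83% did either. In control mice (7 against 4 arrays) 13 members rose and 3 fell, where 6.15% of all genes rose, 4.63% fell and 10.8% did either. Rpl9 then differed by 2.12 in palm oil mice and 2.21 in control mice, Rps13 by 1.67 and 1.97, and Rps3a1 by 0.97 and 1.43. Of the 9 members called in control mice over all arrays, 6 were called in this setting in palm oil mice and all 9 in control mice. Rplp1, a stalk protein, was lower in clamped mice here, by -0.41 in palm oil mice and -0.41 in control mice. The median over all members changed less than these single values. It was 0.04 against the other basal arrays and 0.06 against those of animals 44 or higher in palm oil mice, and 0.14 and 0.10 in control mice.

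**Figure D3:**
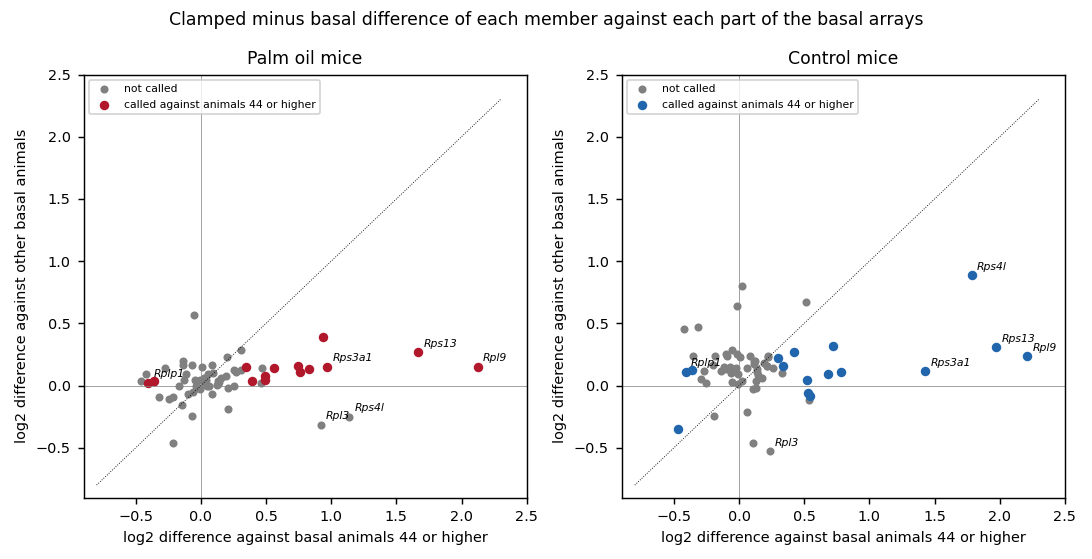
Log2 difference, clamped minus basal, of each of the 67 members against the basal arrays of animals 44 or higher (horizontal) and against the other basal arrays (vertical), in palm oil mice (left) and control mice (right). The dotted line marks equal differences; Rpl9, Rps13 and Rps3a1 lie far to the right of it, and the clamped arrays are shared by both axes.

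Acinar marker means were over 6 on 5 of the 7 basal arrays of animals 44 or higher, on 4 of the other 9 basal arrays and on 3 of 16 clamped arrays. On the palm oil basal arrays, in the order in which Rpl9 is given above, the acinar mean was 9.12, 8.07 and 7.63 in animals 44 or higher and 1.73, 3.82, 4.38, 3.20, 7.80 and 7.56 in the others. On the control basal arrays, in that order, it was 4.94, 2.89, 8.03 and 8.69 in animals 44 or higher and 6.98, 7.30 and 2.22 in the others. High and low acinar means thus occurred on both sides of the division in control mice, and in palm oil mice all 3 arrays of animals 44 or higher were high, as were 2 of the other 6. With the interquartile range of the array as a term of the fit, 4 members (Rpl4, Rpl6l, Rps13 and Rps3a1) were called in palm oil mice, where that fit called 8.54% of all genes, and 8 in control mice, where it called 9.11% of all genes and Rps6 was lost. With the acinar mean as a term, 1 member, Rpl5, was called in palm oil mice, where 5.66% of all genes were, and 1, Rpl22l1, in control mice, where 6.37% of all genes were, and Rpl9 differed by 0.92 there. The part of the array spread and of pancreatic mRNA in these differences was not tested further.

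Members also differed from array to array in a shared way. After subtracting group means, Rps3a1 (Pearson r = 0.92 over 32 arrays), Rps18 (0.86), Rpl4 (0.86), Rps13 (0.85) and Rpl6l (0.79) followed Rpl9 most closely, and Rplp1 (-0.83) and Rpl32 (-0.78) ran opposite to it. Without subtracting group means, the signals followed the interquartile range of the arrays with r = 0.88 for Rps18, 0.84 for Rps3a1, 0.83 for Rpl9 and -0.85 for Rplp1. Without the 7 basal arrays of animals 44 or higher, over 25 arrays, r with Rpl9 was 0.83 for Rps3a1, 0.73 for Rpl23a, 0.71 for Rps13 and 0.71 for Rps18. These values describe arrays that share their normalization and array spread.

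**Figure D4:**
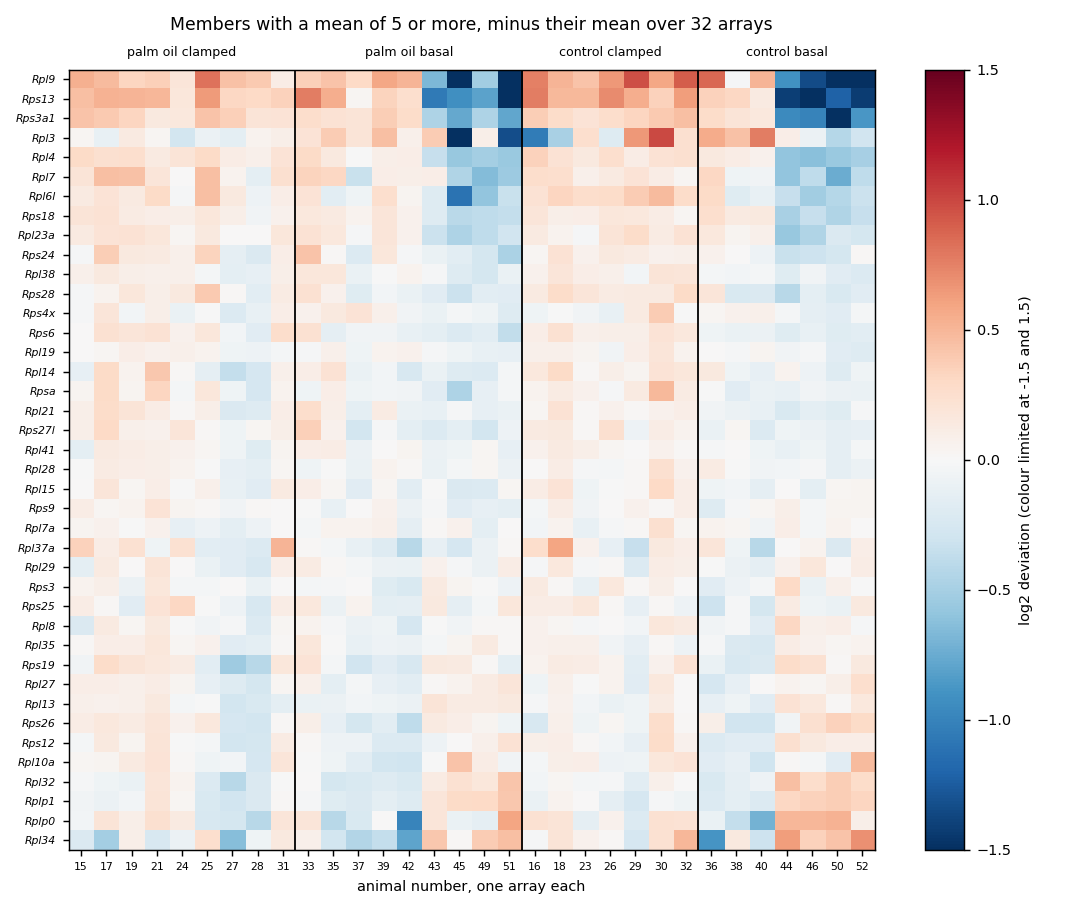
Deviation of the 40 members with a mean signal of 5 or more from their own mean over 32 arrays, in log2 units, with the 4 groups side by side and animal numbers on the horizontal axis. From animal 43 or 44 on, the basal arrays of both diets show Rpl9, Rps13, Rps3a1 and Rpl4 low and Rplp1 and Rpl32 high. Rpl34 is high on most of them but near its mean in animal 45 (6.21 beside 6.19), while rows in the middle stay pale.

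The members with well-known roles described next were not called in either diet. The stalk of the large subunit, which recruits elongation factors, is built from Rplp0, Rplp1 and Rplp2. Rplp0 had 6.85 to 7.28 in clamped and 6.34 to 7.57 in basal control livers and differed there by 0.02 ± 0.18 (SE), where palm oil mice gave 0.09. Rplp1 had 11.20 to 11.51 in clamped and 11.25 to 11.82 in basal control livers and differed by -0.12 ± 0.10 (SE) in palm oil mice and -0.19 ± 0.12 in control mice. Its sign turned without the basal arrays of animals 44 or higher, to 0.024 in palm oil mice and 0.11 in control mice. Rplp2 was dim, with group means of 1.41 to 1.72, and differed by 0.25 in palm oil mice and 0.05 in control mice. Rpsa, a small subunit protein also known as a laminin receptor, had 7.62 to 8.13 in clamped and 7.47 to 7.64 in basal control livers. For Rpsa, 6 of 7 clamped control arrays lay above every basal control array, and 1 of 17 alternative settings called it in control mice. It differed by 0.16 ± 0.08 (SE, adjusted p = 0.271) in palm oil mice and by 0.22 ± 0.09 (adjusted p = 0.137) in control mice.

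Rpl5 and Rpl11 carry the smallest rRNA of the large subunit and, when free, bind Mdm2, the inhibitor of p53. Both were dim: Rpl5 had 1.48 to 2.49 in clamped and 1.94 to 3.06 in basal palm oil livers, a difference of -0.38 ± 0.17 (SE, adjusted p = 0.193), where control mice gave 0.10. Rpl11 differed by 0.14 in palm oil mice and 0.23 in control mice. Rpl3, close to the site of peptide bond formation, differed by 0.10 in palm oil mice (95% interval -0.41 to 0.60) and by -0.09 in control mice (-0.66 to 0.48). Its value moved with the basal arrays it was set against: in palm oil mice it was 0.92 against animals 44 or higher and -0.31 against the others, and in control mice 0.24 and -0.53. Rps3, at the entry of the mRNA, differed by 0.05 in both diets, with intervals of -0.09 to 0.19 in palm oil mice and -0.11 to 0.21 in control mice. Among the paralogs, Rps27l, which p53 can induce, differed by 0.17 in palm oil mice and 0.19 in control mice, Rpl7l1 by -0.13 and -0.15, and Rpl3l, known from skeletal and heart muscle, by -0.19 and -0.14. None of these passed the threshold.

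Several members had more than 1 probe set, and these did not always move together. The 25 such members had 41 further probe sets, of which 14 followed the one used with r above 0.7 over the 32 arrays and 20 had r below 0.3. Those 14 are not all distinct. The second probe sets of Rpl23a and Rps19 had the mean and differences of the one used (r = 1). Several of Rps12 had the same mean (9.58), differences and r (0.705) as each other. The other probe set of Rpl9 was dim (mean 1.37, r = 0.23 with the one used) and differed by 0.08 in palm oil mice and 0.13 in control mice. That of Rps3a1 (mean 0.96, r = -0.475) differed by -0.41 and -0.13. For Rpl4 the other probe set (mean 10.06) differed by 0.07 in palm oil mice and 0.18 in control mice, where the one used gave 0.35 and 0.50. That of Rps28 (mean 2.33) differed by 0.41 and 0.70. Among members not called, the other probe set of Rps26 (mean 5.07, r = -0.29) differed by 0.50 and 0.89, where the one used gave 0.10 and -0.04. That of Rplp1 (mean 2.55, r = -0.62) differed by 0.32 and 0.29, where the one used gave -0.12 and -0.19. Rps13, Rps6, Rps4l, Rpl6l and Rpl22l1 had 1 probe set each.

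Palm oil against water was then compared at each state, which asks whether the lipid load itself moved the family. In basal mice no member differed by limma at an adjusted p under 0.05, against 0% of all genes, with 4 members (5.97%) and 5.11% of all genes at an unadjusted p under 0.05. Differences, palm oil minus control, ran from -0.35 to 0.99 with a median of -0.00. Rps4l had 4.16 ± 0.77 in palm oil and 3.17 ± 0.93 in control basal livers (SD), a difference of 0.99 ± 0.34 (SE, adjusted p = 0.960). Rpl22l1 had 3.60 to 4.36 in palm oil and 4.14 to 4.66 in control basal livers, a difference of -0.35 ± 0.10 (SE, adjusted p = 0.960), and 7 of 9 palm oil arrays lay below every control array. Rpl39l, a paralog of Rpl39 known from testis, differed by -0.29 ± 0.13 (SE). The intervals of 57 members lay within 1.5-fold and of 65 within 2-fold, and that of Rpl9 was -0.51 to 1.06 around 0.28. Animals 44 or higher gave 3 of the 9 palm oil and 4 of the 7 control basal arrays. Rpl9 averaged 4.16 in palm oil and 4.36 in control animals 44 or higher, and 6.14 and 6.33 in the others. Within each part palm oil was thus lower, opposite in sign to 0.28. Rps4l was higher in palm oil in both parts, at 3.24 against 2.79 and at 4.62 against 3.69. The cause of the change of sign was not tested.

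In clamped mice no member differed between palm oil and control either, against 0% of all genes, with 1 member (1.49%) and 3.52% of all genes at an unadjusted p under 0.05 by limma. Differences ran from -0.47 to 0.36 with a median of -0.05, beside 0.001 over all genes. Of the members 16 (23.9%) lay above 0, as did 50.4% of all genes. Rpl26, a dim large subunit member, had 1.13 to 2.89 in palm oil and 2.02 to 3.04 in control clamped livers, a difference of -0.47 ± 0.22 (SE, adjusted p = 1.00). Rpl32l differed by 0.23 and Rps15 by 0.36. The intervals of 56 members lay within 1.5-fold and of 66 within 2-fold.

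**Figure D5:**
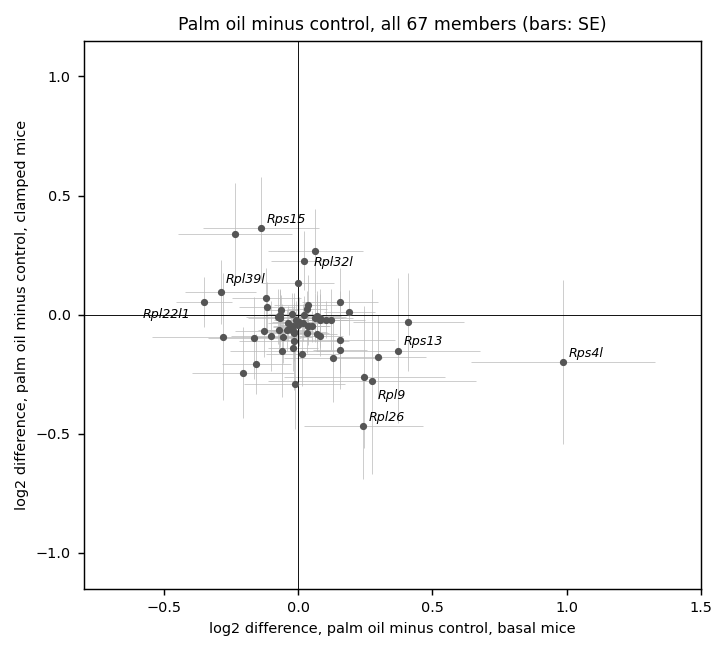
Log2 difference, palm oil minus control, of the 67 members in basal mice (horizontal) and clamped mice (vertical), with standard errors. Most points lie close to 0 on both axes; Rps4l at 0.99 is the farthest to the right, and no member was called in either state.

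The interaction asks whether the clamp difference itself differed between palm oil and control mice. No member passed, against 0% of all genes, with 5 members (7.46%) and 3.49% of all genes at an unadjusted p under 0.05 by limma. The value, the palm oil mice's clamp difference minus the control mice's, ran from -1.19 to 0.57 with a median of -0.05. It was -1.19 ± 0.49 for Rps4l (SE, 95% interval -2.17 to -0.20), 0.40 ± 0.15 for Rpl22l1 (0.10 to 0.70) and -0.71 ± 0.32 for Rpl26 (-1.35 to -0.07), each with an adjusted p of 1.00. For Rpl9 it was -0.56 with an interval of -1.67 to 0.56, which spans more than 2-fold in one direction. Animals 44 or higher gave 3 of the 9 palm oil and 4 of the 7 control basal arrays. Against those arrays the clamp difference of Rpl9 was 2.12 in palm oil and 2.21 in control mice. Against the other basal arrays it was 0.15 and 0.24, so the diets lay close together in each part. Over 15 alternative settings the interaction of Rpl9 ran from -1.29 to -0.08. The cause of this range was not tested. The 0 calls in palm oil mice beside 9 in control mice are thus no measured difference between the diets.

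Other genes of the translation machinery were followed through lists, whose counts stand beside 3.76% of all genes higher and 3.8% lower in palm oil mice, and 4.66% higher and 4.09% lower in control mice. Of 32 translation initiation factor genes, 2 rose in palm oil mice and 4 in control mice, none fell, and the medians were 0.08 and 0.14. Eif1a, which helps the small subunit scan the mRNA, rose by 1.04 in palm oil mice and 0.93 in control mice. Eif2b4, a subunit of the exchange factor for eIF2, rose by 0.40 and 0.61, and Eif3a rose by 0.34 in control mice. Of 6 elongation factor genes 1 rose in each diet: Eef1e1, also a part of the aminoacyl-tRNA synthetase complex, by 0.39 in palm oil mice and 0.46 in control mice. Of 18 other TOP mRNA genes 1, Vim, rose by 0.45 in palm oil mice and none was called in control mice, and the medians were 0.11 and 0.11. Fau, the small subunit protein whose symbol lies outside the rule, differed by 0.06 and 0.08.

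Of 19 genes of the mTORC1 and S6 kinase pathway, 3 rose and 1 fell in palm oil mice, and 2 rose and 2 fell in control mice. Ddit4, an inhibitor of mTORC1 signalling, rose by 2.47 in palm oil mice and 2.26 in control mice, and Rheb, which activates mTORC1 directly, by 0.40 and 0.50. Mtor, the kinase, fell by 0.35 in palm oil mice and by 0.26 in control mice. Larp4 rose by 0.29 in palm oil mice, and Deptor, an mTOR inhibitor, fell by 0.65 in control mice. Among 6 factors known at ribosomal protein promoters, Max rose by 0.54 in palm oil mice and 0.41 in control mice, and in control mice Yy1 rose by 0.45 and Myc fell by 0.61.

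The 71 genes of the mitochondrial ribosome, a separate particle, had medians of 0.01 in palm oil mice and -0.03 in control mice, where the cytosolic members had 0.06 and 0.10. In palm oil mice Mrpl32 rose by 0.50, and Mrpl49 and Mrpl9 fell by 0.44 and 0.31. In control mice Mrpl38 rose by 0.32, and Mrpl12 and Mrpl49 fell by 0.57 and 0.58. Cell-type markers moved beside these values. Of 10 neutrophil markers 6 rose in each diet (S100a8 by 3.85 in palm oil mice and 3.58 in control mice), of 9 Kupffer cell markers 4 rose in each, and of 9 hepatocyte markers 3 rose in palm oil mice and 4 in control mice. Of 7 endothelial markers 1 rose and 1 fell in each diet, of 7 lymphocyte markers 2 fell in palm oil mice, and of 15 acinar markers none was called in palm oil mice (median difference -2.75) and 1 fell in control mice (median -3.29). Their part in the ribosomal protein differences was not tested.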

How the data were processed

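Liver RNA of 32 mice was amplified, biotin-labelled and hybridised to whole-transcript mouse arrays, 1 per mouse, as the labels state. The authors deposited log2 values per probe set; the submitters' processing notes name RMA and Affymetrix Expression Console (version 1.3.0.187). The genome build behind the array annotation is not given in the sources used here. Of 41345 probe sets, 23521 carried 1 gene symbol in the platform annotation, 1814 several and 16010 none; the brightest single-symbol probe set stood for each of 22180 genes. Tests used limma 3.58.1 in R 4.3.3: lmFit with 1 mean for each of the 4 groups (28 residual degrees of freedom), eBayes, 5 contrasts, Benjamini-Hochberg over all genes and a threshold of 0.05. The script was tested on simulated data. Members are described by counts and medians beside those of all genes. Named were fixed anchors with roles of their own, up to 10 called members each way per clamp contrast, the 3 smallest p-values per palm oil contrast and interaction, and up to 3 genes per other list and clamp contrast. The members, lists and alternatives were chosen with earlier results of these data known. No label states that the replicate numbers of the titles pair the mice, and they were not used as pairs. No array repeated another. Alternatives changed probe set choice, normalization, filter, samples, covariates, variance prior and test. Promoter windows came from RefSeq (GRCm38.p6).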

Additional observations from a re-analysis of the deposited data

Results flagged for a closer look

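Of 96 group-by-member sets of values examined (24 named members in 4 groups), 5 held an array whose gap to its nearest neighbour was large for the range of its group; chance gives about 1 in 20. Rpl22l1 was 4.22 in control clamped replicate 6, where the nearest array had 3.94. Rpsa was 8.13 in the same control clamped replicate 6 (nearest 7.77). Rpsa was 7.17 in palm oil basal replicate 7 (nearest 7.46), one of the basal arrays numbered 44 or higher. Rps15 was 3.02 in palm oil clamped replicate 6 (nearest 2.04), at a dim signal. Rps4l was 3.39 in control clamped replicate 2, below the next array at 4.43.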

How the results depend on the processing

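In palm oil mice no member was called between clamped and basal livers (7.57% of all genes; each share in brackets is of all genes called in the same fit). The count was 14 without the 9 basal arrays under animal 44 (9.83%), 4 with the interquartile range of the array as a term (8.54%), 4 among the genes at or above the median signal (17.6%), 4 at a threshold of 0.1 (10.3%), 2 with a trended robust prior (7.48%), 1 after setting all arrays to 1 median (7.11%) and 1 (a fall, Rpl5) with the acinar level as a term (5.66%). In control mice the count was 9 (8.75%). It was 0 without the 7 basal arrays numbered 44 or higher (4.63%), 0 with that split as a block (6.88%), 0 without the 8 numbered 43 or higher (4.77%, chosen after seeing the data), 16 without those under 44 (10.8%) and 1 with the acinar level as a term (6.37%). The replicate number as a block gave 1 call in palm oil mice (Rpl4, 7.34%) and took the call of Rps6 in control mice. Arrays with the same number in different groups had correlations of deviations from -0.234 to 0.291 (median 0.00932), with 11 of 44 pairs over 0.1. Pairs with different numbers had -0.337 to 0.357 (median -0.00174), with 50 of 338 over 0.1. No label states a pairing, and these correlations do not decide it. The median of members in control mice was 0.033 after repeated quantile normalization. The cause of these changes was not tested, beyond the fewer arrays or genes that some settings hold by construction.

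Leaving out single arrays gave 0 to 4 calls (medians 0.04 to 0.10) in palm oil mice and 7 to 12 (0.07 to 0.12) in control mice. It gave 0 for palm oil minus control (medians -0.01 to 0.03 in basal and -0.06 to -0.02 in clamped mice) and for the interaction (-0.07 to -0.02). Signs turned for Rplp1 in palm oil mice with the mean of its probe sets (0.10), without arrays 44 or higher (0.024), with the split as a block (0.038), without arrays 43 or higher (0.079) and without arrays high in acinar markers (0.085). In control mice Rplp1 turned in the first 4 of these settings (0.054, 0.11, 0.083 and 0.11). Without arrays 44 or higher, signs also turned in palm oil mice for Rps4l (-0.25) and Rpl3 (-0.31), whose differences over all arrays, 0.21 and 0.098, were smaller than their standard errors. Rpl9 in palm oil mice turned to -0.032 without arrays 43 or higher, and Rpl3l in control mice to 0.019 without arrays 44 or higher and likewise without 43 or higher. The exact rank sum test called 8 members in control mice (7 rises and 1 fall), where it called 5.05% of all genes. It lost the calls of 6 of the 9 members called there by limma, and kept Rps13, Rps6 and Rpl22l1. The rest of its 8 calls were members that limma had not called. A signal under 3 in 17 members, Rpl5, Rpl11 and Rplp2 among them, limits what can be seen of them.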
